A study of Sus scrofa with 15 samples.

Results

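Chromatin remodelling complexes are the enzymes and cofactors that move, eject, exchange or assemble nucleosomes, and 42 of their genes were followed here across cloned pig embryos and the fibroblasts that gave them their nuclei. The genes were chosen by symbol from the deposited table of 43294 entries (28224 known genes and 15070 assembled transcripts without a gene name). The symbols were those of the SWI/SNF and ISWI families (SMARCA to SMARCE), the chromodomain helicases CHD1 to CHD9, the A and B forms of ARID1, ARID4 and ARID5, the INO80 complex, the MTA subunits of NuRD, BPTF, ATRX, DAXX and the histone chaperones HIRA, ASF1 and CAF-1. Each of the 42 genes was 1 entry of the table, and all 42 were found in the Sscrofa11.1 annotation. HIRA and MTA1 were not analysed here.

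SWI/SNF (BAF) complexes slide and eject nucleosomes with a SMARCA4 or SMARCA2 motor, ISWI complexes space nucleosomes with SMARCA5 or SMARCA1, and NuRD joins a CHD3, CHD4 or CHD5 motor to histone deacetylases. INO80 moves nucleosomes and acts on histone variant H2A.Z, while ASF1 and CAF-1 hand new H3-H4 to replicating DNA and ATRX with DAXX places H3.3 in heterochromatin. Oocytes store transcripts of many of these genes, and after nuclear transfer the same machinery acts on a somatic nucleus before and during embryonic genome activation.

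Libraries were compared from 5 groups of 3. PFF were cultured primary pig fetal fibroblasts, the donor cells. SCNT4c and SCNT8c were 4-cell and 8-cell embryos made by somatic cell nuclear transfer (SCNT) and left untreated. SCNT4c-KG were 4-cell embryos injected with mRNA of the H3K9 demethylase KDM4A 5 h after activation and kept for the first 48 h in 0.1 µM GSK126, which blocks EZH2, the methyltransferase of H3K27. SCNT4c-TDG were 4-cell embryos cloned from fibroblasts that carried a doxycycline-inducible vector for TDG, a thymine DNA glycosylase that takes part in DNA demethylation, and doxycycline was given from 40 to 72 h. All embryos thus carried transferred somatic nuclei, and SCNT4c-TDG differed from SCNT4c also in transfected, puromycin-selected donor cells and in doxycycline. A library without TDG induction but with doxycycline was not analysed here. Each embryo library was a pool of 30 embryos, so it gives RNA per pool and not per blastomere: fewer cells of a type and less RNA per cell cannot be told apart.

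The values are read counts scaled per library, called scaled reads below. They rest on 12354649 to 22868038 reads per library, fewest in SCNT4c-KG (12354649 to 15390472). KDM4A was at 1447.5 ± 24.9 scaled reads (mean ± SD, n = 3) in SCNT4c-KG, 194.4 ± 102.9 in SCNT4c and 775 ± 194 in SCNT4c-TDG, and TDG was at 55575 ± 5177 in SCNT4c-TDG, 1713 ± 802 in SCNT4c and 4366 ± 436 in SCNT4c-KG. Of 10 fibroblast markers, 10 were lower in SCNT4c than in PFF and their summed level was 1626 to 5460 scaled reads in the embryo libraries against 3864946 to 4097690.5 in PFF. The summed level of 10 oocyte markers was 68490.2 to 89879 in SCNT4c, 37145 to 45985 in SCNT8c, 26026 to 50675 in SCNT4c-KG, 10641 to 16783 in SCNT4c-TDG and 11.5 to 20.3 in PFF; GDF9, BMP15 and MOS were listed at 0 throughout. In SCNT4c nearly all of this sum was ZP4 (74784 ± 11043). Of 7 cumulus cell markers, AMH, FOXL2 and PTX3 were at 0 in every embryo library, and the sum was 40.7 to 489 in embryos and 54.8 to 96.5 in PFF. Replicate 3 of SCNT8c stood apart: over 18942 features the mean Pearson r of its log2 values was 0.859 with libraries of SCNT4c, and r within its own group was 0.802 and 0.742. This is a correlation across features, which are not independent. Since titles and descriptions disagree on which SCNT4c sample is which, these libraries are called a, b and c.

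A gene was tested when its mean over the libraries of a fit was at least 10 scaled reads, and it was called changed when the limma adjusted p was under 0.05 and the fold change above 2. In each fit 31 of the 42 genes passed this filter. Of the 42 genes, 30 passed in both fits and 10 in neither, while SMARCA4 passed in the fit with PFF only and CHD8 in the fit of embryos only. A gene that passed only because it was high in 1 group had to differ, so counts over the tested genes describe them and do not stand for all 42. In the fit with PFF, CHD1 passed through SCNT4c only, and CHD5 and SMARCA4 through PFF only, with a mean under 10 in the other group. Log2 fold changes and calls are on the log2(value + 1) scale, which understates the change of low genes. Values given as so many fold lower or higher are ratios of group means, so they can differ from the log2 fold changes.

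**Figure D1:**
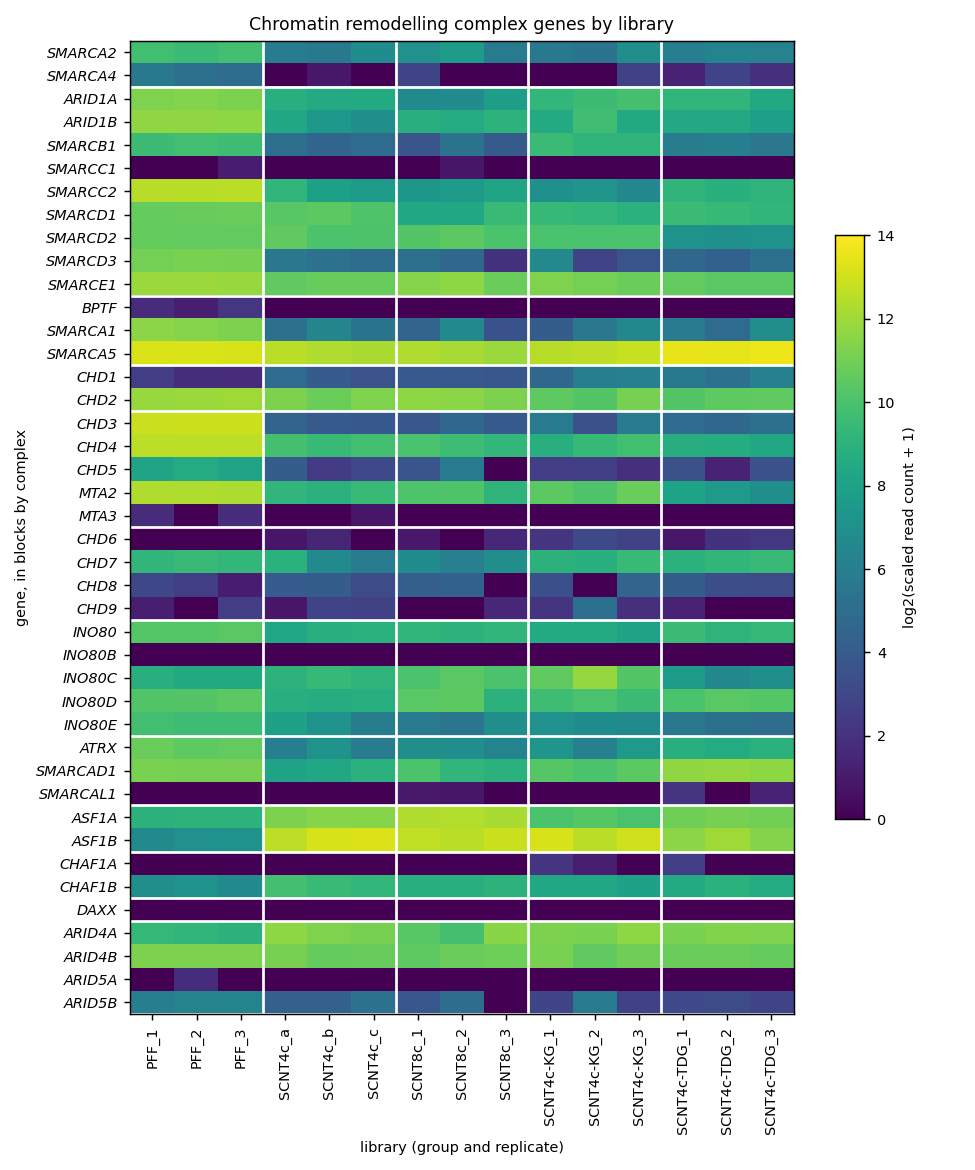
Level of each of the 42 genes (rows, in blocks by complex) in each of the 15 libraries (columns) as log2(scaled reads + 1). PFF columns are the brightest for most SWI/SNF, NuRD and CHD genes, the ASF1 and CHAF1B rows are brighter in embryos, and 10 genes stayed near 0 in all libraries.

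The gene entries of the 10 untested genes were near 0 in all 15 libraries, donor cells included, with a highest value of 34.3 scaled reads (CHD9, in 1 library of SCNT4c-KG). The others were SMARCC1 (highest value 1.19), BPTF (3.58), MTA3 (2.44), CHD6 (7.61), CHAF1A (5.02), SMARCAL1 (3.34) and ARID5A (2.55), and DAXX and INO80B were listed at 0 throughout. Several of these genes are used by nearly every cell, so a value near 0 describes the table entry and does not show that the gene was silent. An assembled transcript without gene name lay in the locus of 10 of these 10 genes, and in that of 15 of the 30 genes tested in both fits. Such a transcript can hold the reads of the gene or of a neighbour in the merged locus, which cannot be told apart from the table.

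The 4 assembled transcripts with the highest values at genes left out of a fit, chosen after their values were seen, lay at CHD8, DAXX, SMARCC1 and BPTF. At DAXX, which encodes the H3.3 chaperone that works with ATRX, the transcript was at 22.0, 33.1 and 20.3 scaled reads in PFF and 824, 713 and 1269 in SCNT4c (log2 fold change 5.15 ± 0.32 (SE), adjusted p = 1.69e-05). It was at 449, 214 and 248 in SCNT4c-KG, 138, 66.0 and 132 in SCNT4c-TDG and 321, 233 and 2.11 in SCNT8c, and no comparison between embryo groups was called. No other known gene shares that locus. At SMARCC1, a SWI/SNF scaffold subunit, the transcript was at 106, 67.3 and 129 in untreated SCNT4c embryos and at 278, 584 and 308 after KDM4A with GSK126 (log2 fold change 1.91 ± 0.61 (SE), adjusted p = 0.0225), with 15.9, 19.1 and 31.0 in PFF. Its 3 values in SCNT4c-TDG were 275, 182 and 148, all above those of SCNT4c, but the difference missed the threshold. At BPTF, the large subunit of the ISWI complex NURF, the transcript was at 332, 319.7 and 384 in PFF, 67.8, 37.6 and 43.2 in SCNT4c, 186, 208 and 202 in SCNT4c-KG and 401, 307 and 278 in SCNT4c-TDG. It was thus lower in SCNT4c than in PFF (log2 fold change -2.82 ± 0.28 (SE), adjusted p = 0.000146). It was higher than in SCNT4c both in SCNT4c-KG (log2 fold change 2.03 ± 0.57 (SE), adjusted p = 0.0115) and in SCNT4c-TDG (log2 fold change 2.73 ± 0.57 (SE), adjusted p = 0.00189). At CHD8, a helicase that represses Wnt target genes, 1 transcript was at 968, 992 and 658 in SCNT4c, 2341, 2419 and 2254 in SCNT4c-KG and 723, 435 and 574 in SCNT4c-TDG. SCNT4c-KG was higher than SCNT4c (log2 fold change 1.44 ± 0.31 (SE), adjusted p = 0.00225), and SCNT4c-TDG was lower than SCNT4c-KG (log2 fold change -2.05 ± 0.31 (SE), adjusted p = 0.000571). A second transcript there was at 43.4, 38.4 and 57.3 in SCNT4c and higher in SCNT4c-TDG at 276, 283 and 252 (log2 fold change 2.54 ± 0.50 (SE), adjusted p = 0.00136). The merged locus of CHD8 holds 6 other known genes, that of BPTF 2 and that of SMARCC1 2.

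**Figure D2:**
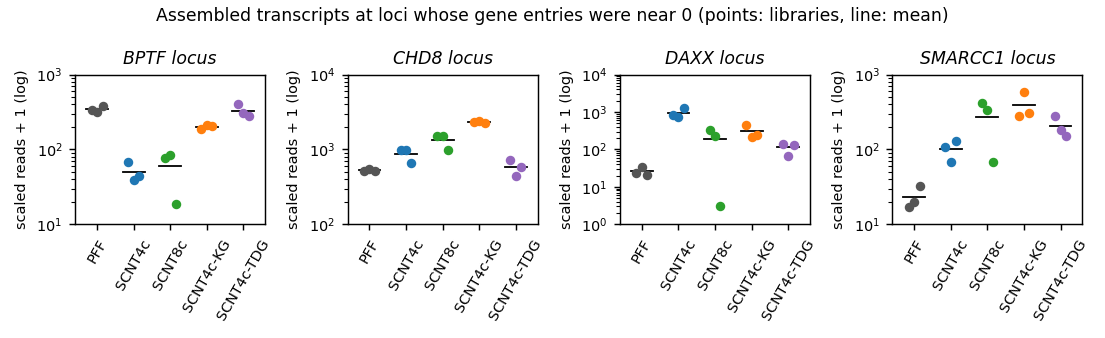
Scaled reads + 1 (log axis) of 1 assembled transcript at each of the BPTF, CHD8, DAXX and SMARCC1 loci in the 5 groups, 3 libraries each as points with the mean as a line. The DAXX locus transcript was highest in SCNT4c (713 to 1269), while the entry named DAXX was at 0 in all 15 libraries.

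Levels can be ranked between genes only per length, here as scaled reads per kb of merged exon. In PFF the highest of the 42 genes were SMARCA5 (1886 per kb), MTA2 (1445), SMARCE1 (1319.8) and SMARCC2 (1097). In SCNT4c the order was led by the histone chaperone ASF1B (4933 per kb), followed by SMARCA5 (1078), ASF1A (1021) and SMARCE1 (576). ASF1B also led in SCNT8c (3932) and SCNT4c-KG (4545), whereas SMARCA5 led in SCNT4c-TDG (2469 against 1929 for ASF1B). The lowest of the genes tested in every comparison was CHD5 in SCNT4c (0.961) and CHD1 in PFF (0.294).

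The first comparison asks how far the remodeller transcripts of a 4-cell clone differ from those of its donor cells. Per the study's methods, RNA of PFF was extracted with TRIzol and that of embryos with a PicoPure kit. Cell type and extraction method therefore cannot be told apart in this comparison. Of 31 genes tested, 20 were lower in SCNT4c than in PFF and 5 were higher. These are 64.5% and 16.1% of the tested genes, whereas 38.5% of all 19287 features tested were lower and 39.7% higher. Among the 28 tested genes with a mean of at least 10 in both groups, 18 were lower and 4 higher. The median log2 fold change of the 31 was -2.18, and that of all features 0.07. With a minimum mean of 50 scaled reads, 18 of the 28 genes then tested were lower and 4 higher. In that setting 5726 of 12133 features were lower and 4294 higher, with a median log2 fold change of -0.79. Features of higher level thus leaned lower too, so part of the contrast with all features goes with level. The genes lower in SCNT4c were motors and subunits of all 4 remodeller families, and those higher were the chaperones ASF1A, ASF1B and CHAF1B with ARID4A and CHD1.

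Among SWI/SNF genes, 8 of 10 tested were lower in SCNT4c and 0 were higher, or 7 of 9 without SMARCA4, which passed the filter through PFF only. SMARCA2, one of the alternative motors, was at 875, 741 and 897 scaled reads in the PFF libraries and 58.4, 48.9 and 113 in SCNT4c (log2 fold change -3.59 ± 0.34 (SE), adjusted p = 0.000118). SMARCA4, the other motor, had 93 reads over the 3 PFF libraries and 1 read over the 3 SCNT4c libraries, a PFF to SCNT4c ratio of 138 (95% interval from counts, 24.1 to 5496). This interval covers counting error only, and the entry was low in every group, with 119 reads in all 15 libraries. The core subunit SMARCB1 was at 785, 883 and 797 in PFF and 33.1, 22.7 and 28.2 in SCNT4c, 29.3-fold lower (log2 fold change -4.84 ± 0.22 (SE), adjusted p = 4.92e-06). The scaffold subunit SMARCC2 was at 5700.0, 5687 and 5957 in PFF and 600.2, 246 and 199 in SCNT4c, 16.6-fold lower (log2 fold change -4.22 ± 0.41 (SE), adjusted p = 0.000127). The SMARCA2, SMARCB1 and SMARCC2 values did not overlap between the groups. This held for all 31 tested genes, called or not, so it does not set these 3 apart.

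The DNA-binding BAF subunits and the accessory SMARCD subunits did not fall alike. ARID1A was 6.29-fold lower in SCNT4c (399 ± 40.9 against 2506 ± 144 scaled reads in PFF, mean ± SD, n = 3, adjusted p = 8.22e-06). Its paralog ARID1B was 15.4-fold lower (208 ± 105 against 3199 ± 57.9, adjusted p = 7.71e-05). SMARCD3, the form known from muscle and heart, was at 2174, 2282 and 2249 in PFF and 48.1, 36.7 and 29.9 in SCNT4c (log2 fold change -5.86 ± 0.22 (SE), adjusted p = 2.43e-06). SMARCD1 (1286 ± 146 against 1733 ± 50.4) and SMARCD2 (1225 ± 269 against 1625 ± 10.4) were not called. SMARCE1, an HMG-box subunit, was 2.29-fold lower (log2 fold change -1.20 ± 0.10 (SE), adjusted p = 6.45e-05).

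The 2 ISWI motors differed. SMARCA1 was at 3017, 2852 and 2441 in PFF and 34.7, 80.4 and 41.5 in SCNT4c, 53.1-fold lower (log2 fold change -5.79 ± 0.34 (SE), adjusted p = 1.29e-05). SMARCA5 was at 9322, 9371 and 8990.2 in PFF and 5909, 5137 and 4779.8 in SCNT4c and was not called (log2 fold change -0.81). Within each library, SMARCA5 exceeded SMARCA1 by 1.74 ± 0.13 on the log2 scale in PFF (mean ± SD, n = 3) and by 6.72 ± 0.70 in SCNT4c.

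Of the NuRD motor and MTA genes, the 3 with a mean of at least 10 in both groups (CHD3, CHD4 and MTA2) were lower in SCNT4c. CHD3 was at 7408, 7882 and 7830.5 in PFF and 22.1, 14.9 and 13.3 in SCNT4c, 460.3-fold lower and the lowest log2 fold change of the 31 genes (log2 fold change -8.79 ± 0.23 (SE), adjusted p = 7.91e-07). CHD4 was at 6125, 6216 and 6208 in PFF and 932, 685 and 861 in SCNT4c, 7.48-fold lower (log2 fold change -2.91 ± 0.14 (SE), adjusted p = 6.42e-06). The log2 ratio of CHD4 to CHD3 within a library was -0.32 ± 0.04 in PFF and 5.56 ± 0.31 in SCNT4c, so CHD4 reads went from slightly fewer than CHD3 reads to more. CHD5, best known from neurons and testis, was at 292, 389.7 and 289.6 in PFF and 16.6, 4.37 and 7.47 in SCNT4c, given as a description. MTA2, a scaffold of the deacetylase core, was 8.46-fold lower (601 ± 82.6 against 5079.9 ± 70.4, adjusted p = 4.38e-06).

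Of the 4 INO80 genes tested, 3 were lower. INO80, the motor, was 3.10-fold lower (418 ± 95.4 against 1295 ± 46.7, adjusted p = 0.000413), INO80D 2.92-fold (adjusted p = 0.000114) and INO80E 5.31-fold (adjusted p = 0.00338). INO80C was at 449.6, 360.4 and 366 in PFF and 524, 673 and 555 in SCNT4c and was not called (log2 fold change 0.57). Exons of INO80E share 752 bases with DOC2A on the opposite strand and the strand setting of the counting is not stated, so their reads cannot be told apart.

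Other SNF2-type motors were lower as well. ATRX, the H3.3 remodeller of heterochromatin, was at 1812, 1454 and 1608 in PFF and 64.7, 138 and 58.1 in SCNT4c, 18.7-fold lower (log2 fold change -4.31 ± 0.36 (SE), adjusted p = 6.01e-05). SMARCAD1, a remodeller that helps to keep H3K9-methylated chromatin silent through replication, was at 2310.1, 2277 and 2261 in PFF and 281, 332 and 486 in SCNT4c (log2 fold change -2.68 ± 0.22 (SE), adjusted p = 6.23e-05). CHD7, a helicase of enhancers, was 2.98-fold lower (adjusted p = 0.0379), with SCNT4c values of 491, 99.6 and 56.5. Its call was lost on leaving out PFF replicate 1 (-2.24), PFF replicate 2 (-2.09), PFF replicate 3 (-2.21), library b of SCNT4c (-1.93) or library c of SCNT4c (-1.53) and under every other scaling, and with the assembled transcript of its locus added the log2 fold change was -0.67 (adjusted p = 0.118). ARID5B was 2.90-fold lower (adjusted p = 0.00612), a direction that turned when the assembled transcript of its locus was added (0.52, adjusted p = 0.168).

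The genes higher in SCNT4c were led by histone chaperones. ASF1B, the replication-linked form of ASF1, was at 100.2, 132 and 138 in PFF and 6169, 9041 and 9936 in SCNT4c, 67.8-fold higher (log2 fold change 6.06 ± 0.24 (SE), adjusted p = 2.79e-06). ASF1A was at 512, 529.8 and 536 in PFF and 2438, 2814 and 2782 in SCNT4c, 5.09-fold higher (log2 fold change 2.34 ± 0.12 (SE), adjusted p = 8.39e-06). CHAF1B, the middle subunit of CAF-1, was at 118, 138 and 101 in PFF and 917, 701 and 620.2 in SCNT4c (log2 fold change 2.63 ± 0.23 (SE), adjusted p = 7.58e-05). The balance of the ASF1 forms turned: the log2 ratio of ASF1A to ASF1B was 2.09 ± 0.22 in PFF and -1.62 ± 0.25 in SCNT4c. ARID4A, a binding partner of the retinoblastoma protein, was 4.54-fold higher (log2 fold change 2.17 ± 0.17 (SE), adjusted p = 4.76e-05), whereas its paralog ARID4B was not called (1879.8 ± 344 against 2414 ± 27.3). CHD1, which acts with transcribing polymerase, was at 4.89, 2.55 and 2.38 in PFF and 29.2, 15.7 and 10.8 in SCNT4c, given as a description since it passed the filter through SCNT4c only. Its log2 difference was 0.01 with quantile normalization and its direction turned when the assembled transcript of its locus was added (-1.01, adjusted p = 0.0553). Its paralog CHD2 was not called (2272 ± 348 against 3868 ± 202).

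**Figure D3:**
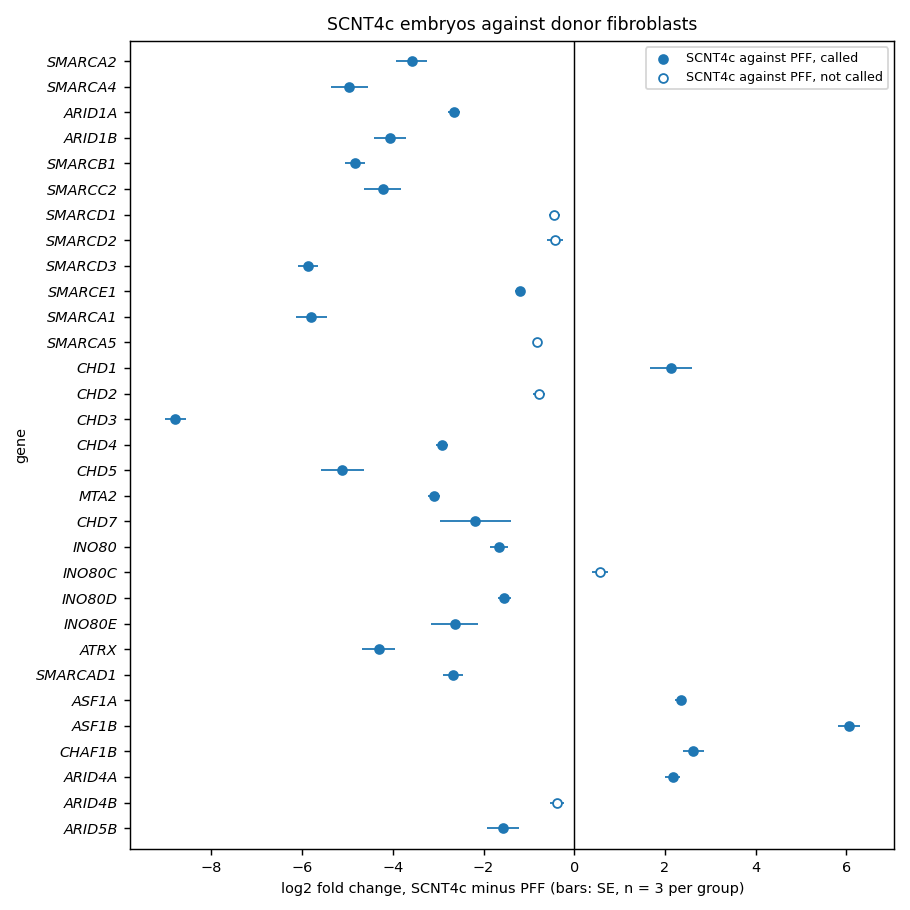
Log2 fold change of SCNT4c against PFF for the 31 genes tested, with SE bars from limma (n = 3 per group), and filled points were called changed. Most points lie left of 0, and ASF1B (6.06) and CHD3 (-8.79) lie farthest to either side.

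Scaling matters for this comparison. With edgeR, DESeq2 or the same total in each library, the log2 fold changes of all features moved up by 0.79 to 0.94 at the median, and 15 or 16 of the genes were then lower and 6 higher. Of the 25 genes, 18 kept their call under every alternative tried, and SMARCA4 in all but the minimum mean of 50, where it was not tested. INO80D and SMARCE1 lost theirs under each of these 3 scalings and under quantile normalization. INO80 lost its call under edgeR, DESeq2 and quantile normalization, and ARID5B under each of the 3 scalings. CHD1 was not tested without SCNT4c library a or b, where its mean fell below the minimum.

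The next comparison asks which of these genes move between the 4-cell and the 8-cell stage, when genome activation proceeds in cloned pig embryos. Of 31 genes tested, 2 were lower in SCNT8c than in SCNT4c and 0 were higher, against 3.16% and 2.62% of all 18942 features tested. With limma and no adjustment, 9 of the genes had p under 0.05, 6 of them higher in SCNT8c, beside 5480 of the 18942 features. With edgeR 2 genes were higher and 1 lower, beside 669 and 173 features. With DESeq2 5 genes were higher and 2 lower, beside 1962 and 771 features. The 2 genes called by limma belong to SWI/SNF.

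ARID1A was at 446, 372 and 378 in SCNT4c and 104, 106 and 232 in SCNT8c, 2.70-fold lower (log2 fold change -1.53 ± 0.40 (SE), adjusted p = 0.0386). Its paralog ARID1B was at 325, 177 and 123 and 458, 389 and 539 and was not called. The log2 ratio of ARID1A to ARID1B within a library went from 1.04 ± 0.58 in SCNT4c to -1.73 ± 0.48 in SCNT8c. SMARCD1 was at 1331, 1405 and 1123 in SCNT4c and 341, 318 and 687 in SCNT8c, 2.87-fold lower (log2 fold change -1.60 ± 0.34 (SE), adjusted p = 0.024), and SMARCD2 was at 1215, 1398 and 1052 in SCNT8c and not called. For both ARID1A and SMARCD1, replicate 3 was the SCNT8c library nearest to SCNT4c.

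Without replicate 3 of SCNT8c, 5 genes were called: ARID1A (log2 fold change -1.91), SMARCD1 (-1.96) and ARID4A (-1.25) lower, and INO80D (1.69) and SMARCAD1 (1.15) higher. In the same setting 19.9% of all 18990 features were lower and 12.4% higher, so the 5 are no gain of these genes over the background. INO80D was at 444, 412 and 455 in SCNT4c and 1383, 1444 and 519 in SCNT8c, and SMARCAD1 at 1064, 586 and 490.2 in SCNT8c, so replicate 3 lay near SCNT4c for both. Without any of the other SCNT4c or SCNT8c libraries, 0 genes were called by limma (5 to 7 at unadjusted p under 0.05), and 0 in a fit of the 2 groups alone (6 at unadjusted p under 0.05). ASF1A was at 5065, 5448 and 4838 in SCNT8c, above all 3 SCNT4c values, and did not pass the fold limit (log2 fold change 0.94, adjusted p = 0.0371). The summed oocyte markers were lower in SCNT8c than in SCNT4c, as given above, though of 6 tested 1 was called lower and 0 higher. Of 8 fibroblast markers tested 2 were lower and 0 higher. The part of these markers in the values was not tested.

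KDM4A mRNA and GSK126 lower H3K9 and H3K27 methylation, and the next comparison asks which remodeller transcripts differ in such embryos. Of 31 genes tested, 6 were higher in SCNT4c-KG than in SCNT4c and 4 were lower, or 19.4% and 12.9%, beside 17.6% and 19.6% of all 18942 features tested. The shares lie near those of all features, so the counts are no result about these genes as a group. The median log2 fold change was -0.11 for the genes and -0.30 for all features.

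Among SWI/SNF genes, SMARCB1 had the largest change of the 31 genes. SMARCB1 (chromosome 14, 49874981 to 49906043, minus strand) was at 33.1, 22.7 and 28.2 in SCNT4c, against 740.0, 559.6 and 544 in SCNT4c-KG, 21.9-fold higher (log2 fold change 4.41 ± 0.56 (SE), adjusted p = 3.08e-05). The SCNT4c-KG values came near those of PFF (785, 883 and 797) without overlap. The gene shares 42 exon bases with DERL3 on the opposite strand. ARID1B was at 325, 177 and 123 in SCNT4c, against 377, 827 and 358 in SCNT4c-KG (log2 fold change 1.32 ± 0.44 (SE), adjusted p = 0.0285), and ARID1A at 617, 774 and 949 in SCNT4c-KG missed the threshold (log2 fold change 0.95, adjusted p = 0.0696). SMARCC2 was at 600.2, 246 and 199 in SCNT4c, against 127, 159 and 91.2 in SCNT4c-KG (log2 fold change -1.33 ± 0.45 (SE), adjusted p = 0.0309). SMARCD1 was at 653, 607 and 484 in SCNT4c-KG, below all 3 SCNT4c libraries (log2 fold change -1.15 ± 0.34 (SE), adjusted p = 0.0162).

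Outside SWI/SNF, 4 genes were higher. INO80C (chromosome 6, 119262488 to 119285852, minus strand), a small subunit of the INO80 complex, was at 524, 673 and 555 in SCNT4c, against 1549, 3582 and 1231 in SCNT4c-KG, 3.63-fold higher (log2 fold change 1.71 ± 0.41 (SE), adjusted p = 0.00466). SMARCAD1 was at 281, 332 and 486 and 1287, 1036 and 1402 (log2 fold change 1.79 ± 0.34 (SE), adjusted p = 0.000894). MTA2 was at 599, 519 and 684 and 1436, 1145 and 1749.8 (log2 fold change 1.25 ± 0.39 (SE), adjusted p = 0.0198). CHD7 was at 491, 99.6 and 56.5 and 506, 471 and 689.7 (log2 fold change 1.95 ± 0.61 (SE), adjusted p = 0.0199), and SCNT4c library a lay within the range of SCNT4c-KG. An assembled transcript at the CHD7 locus was at 196, 203 and 246 in SCNT4c, against 320.2, 155 and 279 in SCNT4c-KG, and with it added the log2 fold change of CHD7 was 0.98 (adjusted p = 0.0675) and not called. The NuRD motors CHD3 (log2 fold change 0.84), CHD4 (-0.35) and CHD5 (-0.84) and the INO80 motor (-0.28) were not called.

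Of the chaperones, ASF1A and CHAF1B were lower in SCNT4c-KG. ASF1A was at 2438, 2814 and 2782 in SCNT4c, against 1049, 1246 and 992 in SCNT4c-KG, 2.44-fold lower (log2 fold change -1.29 ± 0.24 (SE), adjusted p = 0.000723), while ASF1B was at 9156, 5954 and 8057 and not called. CHAF1B was at 917, 701 and 620.2 and 335, 325 and 256 (log2 fold change -1.28 ± 0.32 (SE), adjusted p = 0.00608). The log2 ratio of ASF1A to ASF1B was -1.62 ± 0.25 in SCNT4c and -2.80 ± 0.47 in SCNT4c-KG. ASF1A, CHAF1B, INO80C, SMARCAD1 and SMARCB1 kept their calls under every alternative and with each library left out. CHD7 lost its call under edgeR (1.56, adjusted p = 0.0531) and SMARCD1 under DESeq2, where its log2 fold change was -0.99. The other 5 calls, these among them, also depended on single libraries: ARID1B was lost on leaving out library b of SCNT4c (1.26), library c of SCNT4c (1.0) or SCNT4c-KG replicate 2 (0.93), CHD7 on leaving out library b of SCNT4c (1.71), library c of SCNT4c (1.30) or SCNT4c-KG replicate 3 (1.79), MTA2 on leaving out library b of SCNT4c (1.15), SCNT4c-KG replicate 1 (1.24) or SCNT4c-KG replicate 3 (1.10), SMARCC2 on leaving out library a of SCNT4c (-0.85), SCNT4c-KG replicate 1 (-1.35) or SCNT4c-KG replicate 3 (-1.11) and SMARCD1 on leaving out library b of SCNT4c (-1.08) or SCNT4c-KG replicate 3 (-1.02). The number of genes called was 6 when library b of SCNT4c was left out, beside 5469 of 18910 features. It was also 6 without replicate 3 of SCNT4c-KG, beside 5912 of 18888 features. DESeq2 called 9 genes higher and 3 lower, or 12 of 31, beside 7237 of 18942 features in both directions. Of 3 cumulus markers tested in this comparison 1 was called, STAR, higher at 244 ± 111 against 28.8 ± 6.50 in SCNT4c, and the sum of the list was 276 to 489 against 86.5 to 243, while CYP19A1 was at 7.64 ± 5.60 against 38.1 ± 18.8. Of 6 oocyte markers tested, ZP4 was called lower and ZP3 higher (667 ± 226 against 28.1 ± 21.3). Of 8 fibroblast markers tested, 4 were lower and 2 higher. The part of these markers in the values above was not tested.

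Induction of TDG in clones is the subject of the next comparison. Of 31 genes tested, 5 were higher in SCNT4c-TDG than in SCNT4c and 6 were lower, or 16.1% and 19.4%, beside 15.7% and 17.6% of all 18942 features tested. These shares again lie near the background and are no result about the genes as a group. The median log2 fold change was -0.08 for the genes and -0.26 for all features.

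The higher genes were motors of several families and INO80D. SMARCAD1 (chromosome 8, 125410221 to 125488471, minus strand) was at 281, 332 and 486 in SCNT4c and 3267, 3531 and 3117 in SCNT4c-TDG, 9.03-fold higher (log2 fold change 3.21 ± 0.34 (SE), adjusted p = 6.81e-06). The 3 SCNT4c-TDG libraries lay above the PFF values of 2310.1, 2277 and 2261. ATRX (chromosome X, 61584028 to 61872341, minus strand) was at 64.7, 138 and 58.1 in SCNT4c and 443, 389 and 509 in SCNT4c-TDG, 5.14-fold higher (log2 fold change 2.45 ± 0.50 (SE), adjusted p = 0.00163). SMARCA5, the ISWI motor of the ACF and CHRAC complexes, was at 5909, 5137 and 4779.8 and 11936, 11546 and 12749 (log2 fold change 1.20 ± 0.23 (SE), adjusted p = 0.00103), and SMARCA1 was not called (log2 fold change 0.21). CHD7 was at 502, 595 and 715 in SCNT4c-TDG (log2 fold change 2.08 ± 0.61 (SE), adjusted p = 0.0158), with SCNT4c library a at 491, and with the assembled transcript of the locus added the log2 fold change was 0.75 (adjusted p = 0.167) and not called. INO80D was at 444, 412 and 455 in SCNT4c and 1057, 1359 and 1286 in SCNT4c-TDG (log2 fold change 1.49 ± 0.37 (SE), adjusted p = 0.00646). Its exons share 398 bases with a predicted gene on the opposite strand.

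The lower genes were SMARCD2, INO80C, INO80E, MTA2, CHD4 and ASF1B. SMARCD2 (chromosome 12, 15091926 to 15101899, plus strand) was at 1534, 1049 and 1091 in SCNT4c and 147, 132 and 148 in SCNT4c-TDG, 8.61-fold lower (log2 fold change -3.08 ± 0.29 (SE), adjusted p = 2.67e-06). The log2 ratio of SMARCD1 to SMARCD2 was 0.09 ± 0.32 in SCNT4c and 2.23 ± 0.21 in SCNT4c-TDG. INO80C was at 199, 92.1 and 126 in SCNT4c-TDG, 4.20-fold lower than in SCNT4c (log2 fold change -2.12 ± 0.41 (SE), adjusted p = 0.00111). INO80E was at 256, 145 and 59.8 and 48.5, 34.5 and 30.6 (log2 fold change -1.79 ± 0.61 (SE), adjusted p = 0.0332). MTA2 (chromosome 2, 9137818 to 9146966, plus strand) was at 599, 519 and 684 and 282, 186 and 123 (log2 fold change -1.68 ± 0.39 (SE), adjusted p = 0.00395), and CHD4 at 932, 685 and 861 and 429, 399.7 and 339 (log2 fold change -1.08 ± 0.34 (SE), adjusted p = 0.0234). ASF1B (chromosome 2, 65063186 to 65072681, plus strand) was at 6169, 9041 and 9936 and 2983, 4124 and 2725 (log2 fold change -1.35 ± 0.27 (SE), adjusted p = 0.00156), while ASF1A was not called (1983, 2259.9 and 2049 in SCNT4c-TDG). Of the 11 genes, 8 kept their calls under every alternative. CHD7 was lost on leaving out library b of SCNT4c (1.83), library c of SCNT4c (1.43) or SCNT4c-TDG replicate 3 (1.95), CHD4 on leaving out library a of SCNT4c (-0.99), library c of SCNT4c (-1.04), SCNT4c-TDG replicate 1 (-1.15), SCNT4c-TDG replicate 2 (-1.10) or SCNT4c-TDG replicate 3 (-0.98) and INO80E on leaving out library a of SCNT4c (-1.30), library b of SCNT4c (-1.71), SCNT4c-TDG replicate 1 (-1.97), SCNT4c-TDG replicate 2 (-1.73) or SCNT4c-TDG replicate 3 (-1.65). CHD4 also lost its call under edgeR, DESeq2, quantile normalization and the same total, and INO80E under the same total (-1.52). DESeq2 called 7 genes higher and 5 lower, beside 6982 of 18942 features in both directions. The same total gave 5 higher and 4 lower, beside 6233 of 19546 features. The summed oocyte markers, led by ZP4 (11245 ± 2977) and ZP2 (1838 ± 527), were lower in SCNT4c-TDG than in any SCNT4c library, and of 6 tested 2 were called lower and 0 higher. Of 8 fibroblast markers tested 3 were lower and 0 higher. The part of both lists in these values was not tested.

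**Figure D4:**
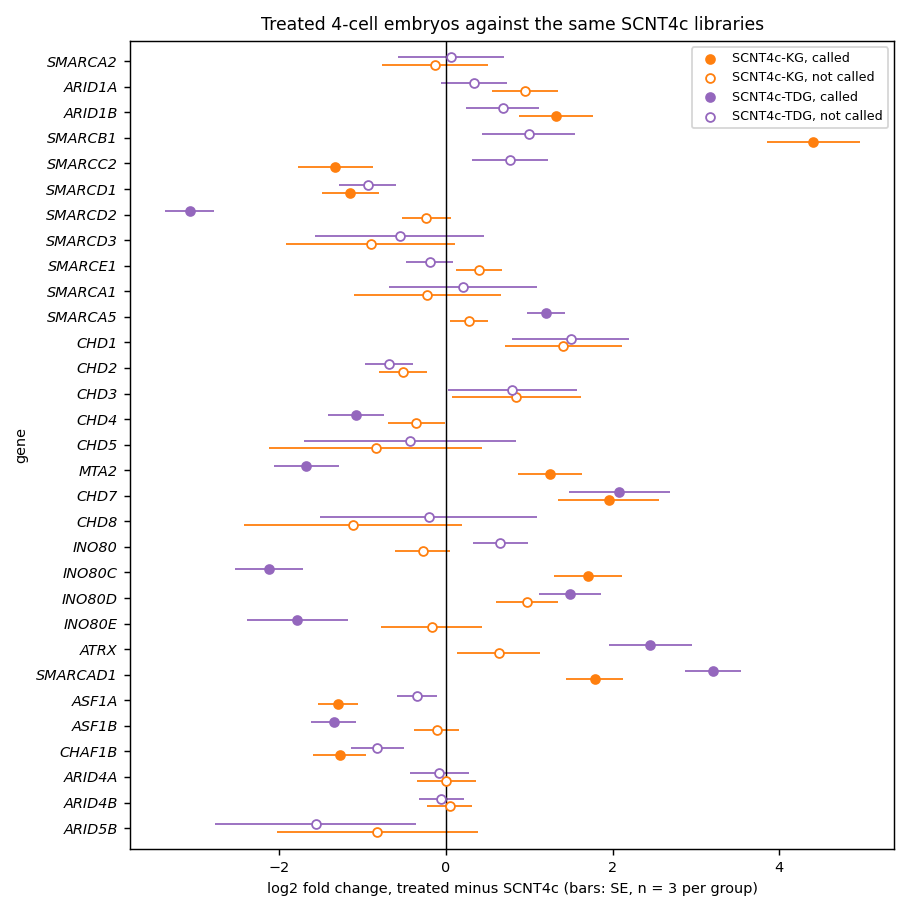
Log2 fold change of SCNT4c-KG (orange) and SCNT4c-TDG (purple) against SCNT4c for the 31 genes tested, with SE bars (n = 3 per group), and filled points were called changed. Both sets use the same 3 SCNT4c libraries, and MTA2 and INO80C lie on opposite sides of 0 in the 2 treatments.

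Because both treatments were set against the same SCNT4c libraries, their difference was tested directly as SCNT4c-TDG against SCNT4c-KG. Of 31 genes tested, 3 were higher in SCNT4c-TDG and 5 were lower, or 9.68% and 16.1%, beside 7.07% and 9.13% of all 18942 features tested. SMARCC2, ATRX and SMARCAD1 were higher, and INO80C, SMARCB1, MTA2, SMARCD2 and ASF1B were lower. The split between higher and lower was 6 and 4 with the same total in each library, 5 and 5 with edgeR, 6 and 5 with DESeq2 and 4 and 4 with quantile normalization. In that order, 3190 of 19546 features and 2555, 3968 and 3415 of 18942 features were called, both directions together.

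INO80C was 15.2-fold lower in SCNT4c-TDG than in SCNT4c-KG (log2 fold change -3.83 ± 0.41 (SE), adjusted p = 4.34e-05). MTA2 was 7.33-fold lower (log2 fold change -2.93 ± 0.39 (SE), adjusted p = 0.000203). Each of these 2 genes was called higher in SCNT4c-KG and lower in SCNT4c-TDG relative to SCNT4c, and none of the 3 groups overlapped in either gene. SMARCB1 was at 58.5, 65.2 and 46.7 in SCNT4c-TDG and so 10.8-fold lower than in SCNT4c-KG (log2 fold change -3.41 ± 0.56 (SE), adjusted p = 0.000944). SMARCD2 was at 1011, 1008 and 1056 in SCNT4c-KG and 7.20-fold lower in SCNT4c-TDG (log2 fold change -2.84 ± 0.29 (SE), adjusted p = 3.49e-05). ASF1B was 2.36-fold lower (log2 fold change -1.24 ± 0.27 (SE), adjusted p = 0.00634), a call lost under quantile normalization and the same total. The log2 ratio of ASF1A to ASF1B was -0.62 ± 0.23 in SCNT4c-TDG and -2.80 ± 0.47 in SCNT4c-KG.

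SMARCC2 (chromosome 5, 21563426 to 21586790, minus strand) was at 127, 159 and 91.2 in SCNT4c-KG and 565, 465 and 556 in SCNT4c-TDG, 4.21-fold higher (log2 fold change 2.09 ± 0.45 (SE), adjusted p = 0.00556). In SCNT4c it was at 600.2, 246 and 199, and library a lay above both other libraries. ATRX was at 155, 68.5 and 184 in SCNT4c-KG and 3.29-fold higher in SCNT4c-TDG (log2 fold change 1.82 ± 0.50 (SE), adjusted p = 0.0214), a call lost on leaving out SCNT4c-KG replicate 2 (1.39), SCNT4c-TDG replicate 1 (1.82), SCNT4c-TDG replicate 2 (1.92) or SCNT4c-TDG replicate 3 (1.72). SMARCAD1 was higher in both treatments than in SCNT4c, and 2.66-fold higher in SCNT4c-TDG than in SCNT4c-KG (log2 fold change 1.42 ± 0.34 (SE), adjusted p = 0.00999). CHD7 did not differ past the threshold between the treatments (502, 595 and 715 against 506, 471 and 689.7, log2 fold change 0.13, SE 0.61).

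**Figure D5:**
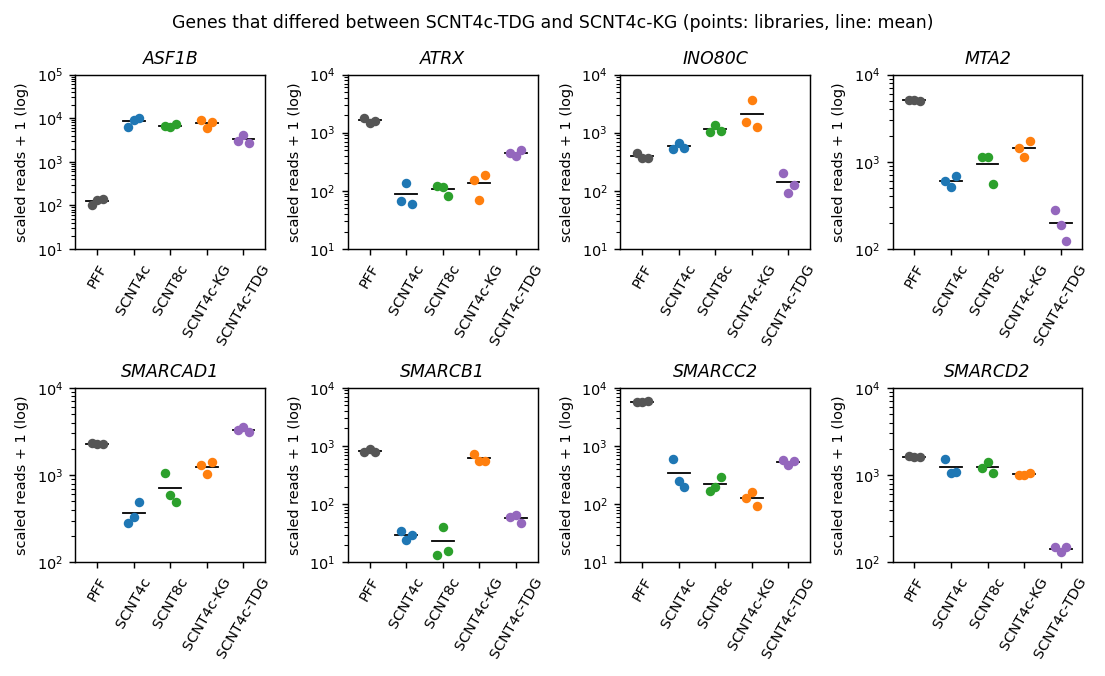
Scaled reads + 1 (log axis) of the 8 genes called different between SCNT4c-TDG and SCNT4c-KG, in all 5 groups with 3 libraries each as points and the mean as a line. SMARCB1 in SCNT4c-KG sits at 544 to 740, near PFF (785 to 883), while INO80C and MTA2 in SCNT4c-TDG lie below every other embryo library.

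The sequence before the start of these genes is shown for its CpG content, because TDG acts on DNA at CpG sites. The difference held under every alternative tried for 6 genes (INO80C, MTA2, SMARCAD1, SMARCB1, SMARCC2 and SMARCD2). The window of 250 bases before the RefSeq gene start is printed for 4 of them, each overlapping no other gene, while that of MTA2 overlaps EML3. Sequences were read from the Sscrofa11.1 genome, 5′ to 3′ on the strand of the gene, and capitals mark CG dinucleotides.
INO80C (chr6:119285853-119286102, minus strand, 9 CpG): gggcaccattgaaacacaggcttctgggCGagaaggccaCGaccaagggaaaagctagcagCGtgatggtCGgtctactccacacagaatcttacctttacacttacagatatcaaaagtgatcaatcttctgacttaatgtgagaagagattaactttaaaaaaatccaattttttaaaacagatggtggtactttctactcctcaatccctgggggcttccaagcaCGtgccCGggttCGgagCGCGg
SMARCB1 (chr14:49906044-49906293, minus strand, 21 CpG): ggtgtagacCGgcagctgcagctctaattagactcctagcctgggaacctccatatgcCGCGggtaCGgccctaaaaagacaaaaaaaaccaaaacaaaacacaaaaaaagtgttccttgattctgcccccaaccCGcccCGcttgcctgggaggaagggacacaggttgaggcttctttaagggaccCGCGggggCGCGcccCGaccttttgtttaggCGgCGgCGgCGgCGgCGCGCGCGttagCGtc
SMARCD2 (chr12:15091676-15091925, plus strand, 20 CpG): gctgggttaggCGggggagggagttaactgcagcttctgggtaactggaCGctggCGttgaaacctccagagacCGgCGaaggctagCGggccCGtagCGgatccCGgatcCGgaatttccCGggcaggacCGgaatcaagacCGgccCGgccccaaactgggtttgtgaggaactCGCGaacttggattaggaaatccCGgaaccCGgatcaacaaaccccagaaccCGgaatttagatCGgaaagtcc
SMARCC2 (chr5:21586791-21587040, minus strand, 29 CpG): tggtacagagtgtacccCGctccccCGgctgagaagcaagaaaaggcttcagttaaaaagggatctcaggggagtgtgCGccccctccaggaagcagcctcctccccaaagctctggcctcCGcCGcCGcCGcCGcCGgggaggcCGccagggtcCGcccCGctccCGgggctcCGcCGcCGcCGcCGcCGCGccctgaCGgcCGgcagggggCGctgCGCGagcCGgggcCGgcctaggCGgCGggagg
Against SCNT4c-KG, 3 of these 4 genes were lower in SCNT4c-TDG, and their windows held 9, 21 and 20 CG dinucleotides. That of MTA2, also lower, held 17, and that of SMARCC2, which was higher, held 29. Of other genes called between the treatments, the window of ASF1B (lower) held 25 and that of ATRX (higher) held 5. Against SCNT4c, SMARCB1 and SMARCC2 were not called in SCNT4c-TDG. The median was 20 over the windows of 41 of the genes and 12 over 19569 coding genes. A GC box (GGGCGG on either strand) was found in 2 of 5 windows (the 4 printed and that of MTA2), those of SMARCB1 and SMARCC2, in 22 of 41 and in 45.9% of all coding genes. RefSeq starts may differ from the starts used in embryos, no methylation was measured here, and a match is no evidence of a bound factor.

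The balance between paralogs was compared within libraries for 13 pairs, in up to 5 comparisons each (60 in all), by an exact 2-sided permutation test on the log2 ratio. With 3 against 3 libraries the smallest p is 0.1, or 0.25 after Benjamini-Hochberg adjustment over the 60, so none could pass 0.05. The ratios quoted above for ASF1A to ASF1B, SMARCA5 to SMARCA1, CHD4 to CHD3, ARID1A to ARID1B and SMARCD1 to SMARCD2 all had p = 0.1 in this exact test.

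Other subunits of the same complexes were taken from 5 lists of 81 genes in all, of which 79 were in the table and 50 were tested in each fit. Where partners are counted with a mean of at least 10 in both groups, the shares of all features beside them lack that filter. Between SCNT4c and PFF, 28 of the 50 were lower and 13 higher, beside 38.5% and 39.7% of all features. Of the lower ones, 8 passed the filter through PFF only, with a mean under 10 in SCNT4c (ACTR5, ACTR8, BAZ1A, BAZ1B, DMAP1, MRGBP, SS18 and TLK1), and their fold changes are a description. Among the 42 partners with a mean of at least 10 in both groups, 20 were lower and 13 higher, which by list was 8 lower and 3 higher of 13 for INO80, SRCAP and TIP60, 5 and 4 of 10 for SWI/SNF, 3 and 3 of 7 for NuRD and 4 and 3 of 11 for the chaperones. Of 17 tested partners of INO80, SRCAP and TIP60, 12 were lower, DMAP1 (-8.06 ± 0.54 log2 fold change ± SE) most, with MRGBP at 136 ± 16.2 in PFF and at 0 in all SCNT4c libraries, and 3 higher, ING3 (6.02 ± 0.12) most. Of 11 SWI/SNF partners, 6 were lower, among them SS18 (-6.28 ± 0.65), SS18L1 (-4.94 ± 1.77) and BRD9 (-4.14 ± 0.35), and 4 were higher. Of 7 NuRD partners, 3 were lower and 3 higher: the methyl-CpG binder MBD2 (-4.61 ± 0.20) and GATAD2A (-4.57 ± 0.74) fell, whereas GATAD2B (3.26 ± 0.10) rose. Of 12 chaperone partners, 5 were lower, with TONSL (-4.23 ± 1.40) and the ASF1 kinase TLK1 (-3.47 ± 0.46) foremost, and 3 higher, PCNA (4.14 ± 0.26), the replication clamp that recruits CAF-1, foremost. Of the ISWI partners, 1 had a mean of at least 10 in both groups and it was not called. Against 2.62% of all features higher and 3.16% lower between SCNT8c and SCNT4c, 3 of 50 were higher (ZNHIT1, 2.76 ± 0.42; KAT5, 1.64 ± 0.45; BRD9, 1.85 ± 0.39) and 2 lower (EPC1, -1.74 ± 0.45; UBN1, -1.26 ± 0.33).

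In SCNT4c-KG against SCNT4c, 21 of the 50 partners were higher and 7 lower. Of the higher ones, 7 had a mean under 10 in SCNT4c (ACTR5, BAZ1A, BCL7A, DMAP1, SS18, TFPT and TLK1) and passed the filter through other groups, so that their fold changes are a description. Among the 42 with a mean of at least 10 in both groups, 14 were higher and 7 lower, which by list was 7 higher and 2 lower of 13 for INO80, SRCAP and TIP60, 2 and 2 of 10 for SWI/SNF, 1 and 2 of 7 for NuRD and 3 and 1 of 11 for the chaperones. Over all features, without the filter on both groups, 17.6% were higher and 19.6% lower, so the filtered counts have no like background. ZNHIT1, a subunit of SRCAP, had a mean of 57.1 ± 12 scaled reads in SCNT4c, against 2197 ± 932 in SCNT4c-KG (log2 fold change 5.16 ± 0.42, adjusted p = 3.54e-07). UCHL5, a deubiquitinase found in INO80, was at 46.9 ± 13.5 and 1376 ± 131 (4.88 ± 0.37), and the INO80 actin-related subunit ACTR5 at 5.54 ± 6.71 and 84.0 ± 32.8 (4.11 ± 1.02). Of 13 SWI/SNF partners, 4 were higher and 2 lower, SS18 (5.36 ± 0.82), BCL7A (2.82 ± 0.87) and BRD9 (2.62 ± 0.39) having the largest changes. The ISWI partner CHRAC1 was higher (1.32 ± 0.33), and BAZ1A was at 0.291 ± 0.505 and 27.0 ± 9.82. Of 12 chaperone partners, 4 were higher, CABIN1 (3.59 ± 0.61) and TLK1 (3.11 ± 0.73) foremost, and 1 lower. Of 7 NuRD partners, CDK2AP1 (-1.95 ± 0.40) and RBBP4 (-1.10 ± 0.26) were lower and MBD2 (1.44 ± 0.43) higher.

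In SCNT4c-TDG against SCNT4c, 12 of the 50 were higher and 8 lower, beside 15.7% and 17.6% of all features, so the lower share was near the background. Of the higher ones, ACTR5, BAZ1A, DMAP1, SS18 and TLK1 had a mean under 10 in SCNT4c and are described only, and among the 41 with a mean of at least 10 in both groups 7 were higher and 8 lower, which by list was 3 higher and 2 lower of 13 for INO80, SRCAP and TIP60, 2 and 2 of 10 for SWI/SNF, 0 and 3 of 7 for NuRD and 2 and 1 of 10 for the chaperones. BAZ1A, which pairs with SMARCA5 in the ACF complex, was at 0.291 ± 0.505 in SCNT4c and 117 ± 28.3 in SCNT4c-TDG. Of 16 partners of INO80, SRCAP and TIP60, 5 were higher, UCHL5 (5.37 ± 0.37), DMAP1 (3.72 ± 1.10) and ACTR5 (3.46 ± 1.02) most, and 2 lower. Of 13 SWI/SNF partners, 3 were higher and 2 lower, with SS18 (5.61 ± 0.82), DPF2 (-3.53 ± 0.26) and BRD7 (-2.96 ± 0.55) the largest changes. Of 7 NuRD partners, 3 were lower and 0 higher: GATAD2B (-2.33 ± 0.28), the deacetylase HDAC1 (-1.38 ± 0.33) and CDK2AP1 (-1.15 ± 0.40). Of 12 chaperone partners, 3 were higher (TLK1, 3.79 ± 0.73; CABIN1, 3.53 ± 0.61; UBN2, 2.64 ± 0.33) and 1 lower. Between the treatments, beside 7.07% of all features higher and 9.13% lower, 3 of 50 were higher in SCNT4c-TDG (ARID2, 2.60 ± 0.44, EPC2, 1.59 ± 0.44, and UBN2, 1.42 ± 0.33), and 7 were lower, with RUVBL1 (-1.98 ± 0.44), ZNHIT1 (-1.88 ± 0.42) and BRD9 (-1.73 ± 0.39) at the far end.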

How the data were processed

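The 42 genes, the other lists and the tests were chosen with earlier results of these data known. Per the study's methods and the submitters' processing notes, the authors used Trimmomatic 0.39 to remove low-quality reads, STAR 2.5.3a for unique alignments (build Sscrofa11.1), StringTie 2.1.2 for transcript assembly and HTSeq for counting. The deposited signal is these counts divided by 1 factor per library, and 100% of values were whole multiples of 1 read (tolerance 0.001), which gave the recovered reads. Of 43535 entries, 241 repeats were removed. Values were tested as log2(value + 1) with limma 3.58.1 (R 4.3.3, intensity trend, mean of at least 10), with Benjamini-Hochberg adjustment over all features. The 12 embryo libraries were fitted together, and SCNT4c with PFF in a fit of 6. edgeR 4.0.16 and DESeq2 1.42.0 were run on recovered reads as alternatives. The labels name replicates but not separate cultures, so p-values measure the spread between these samples. On simulated reads limma missed most of the changes put in, but only 187 of 18080 genes were changed there. In these data 7054 of 18942 features were called between SCNT4c-KG and SCNT4c, so that recovery does not measure the power here. A gene that was not called may still differ. Every changed gene is named, with paralogs and complex partners of changed genes, the highest and lowest per length and every untested gene. In the other lists the 3 largest changes are named. INHBA was left out of the cumulus markers because 2 entries carry its symbol. Python scripts used pandas 2.3.3 and scipy 1.17.1. Strand setting and sequencing batches are not given in the sources used here. The promoter window of 1 gene is not reported here.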

Additional observations from a re-analysis of the deposited data

Results flagged for a closer look

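For 8 genes the effect of TDG induction differed from that of KDM4A with GSK126, by the test of SCNT4c-TDG against SCNT4c-KG itself (limma, adjusted p under 0.05 and fold change above 2). The log2 difference, SCNT4c-TDG minus SCNT4c-KG, was -3.83 for INO80C, -3.41 for SMARCB1, -2.93 for MTA2, -2.84 for SMARCD2 and -1.24 for ASF1B. It was 2.09 for SMARCC2, 1.82 for ATRX and 1.42 for SMARCAD1. In each of the 8 genes the 3 libraries of one treatment lay outside the range of the other. This held for 18 of the 31 tested genes, so it does not by itself set the 8 apart. The share over all features was not computed. INO80C and MTA2 were called on opposite sides of SCNT4c in the 2 treatments.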

How the results depend on the processing

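Of the 25 genes called between SCNT4c and PFF, 18 kept their call in every setting (SMARCA4, not tested at a minimum mean of 50, in all others), of 10 between SCNT4c-KG and SCNT4c 5 did, of 11 between SCNT4c-TDG and SCNT4c 8, of 8 between SCNT4c-TDG and SCNT4c-KG 6, and of 2 between SCNT8c and SCNT4c 0. The number called between SCNT8c and SCNT4c was 2 as reported, 1 when all features above 0 were tested, 7 with DESeq2 and 0 in the limma fit of the 2 groups alone, where 6 had an unadjusted p under 0.05. With 1 library left out at a time it ranged from 0 to 5, the 5 without replicate 3 of SCNT8c. The same range was 23 to 24 for SCNT4c against PFF, 6 to 9 for SCNT4c-KG against SCNT4c, 8 to 10 for SCNT4c-TDG against SCNT4c and 7 to 9 for SCNT4c-TDG against SCNT4c-KG. Over all features, 1096 were called between SCNT8c and SCNT4c (497 higher, 599 lower), 601 when all above 0 were tested, 1662 with a pseudocount of 10, 842 with edgeR (669 higher, 173 lower), 2733 with DESeq2 (1962 higher, 771 lower), 0 in the fit of 2 groups (3582 at an unadjusted p under 0.05) and 31 to 6133 with 1 library left out. Adding the assembled transcripts of the locus reversed ARID5B (0.52) and CHD1 (-1.01) between SCNT4c and PFF. The cause was not tested where calls changed. Scaling to the same total, edgeR and DESeq2 gave 8674 to 9138 features higher and 5864 to 6164 lower between SCNT4c and PFF, against 7662 and 7421 as reported. Other scalings moved the median of all features (log2) by -0.096 to 0.94 between SCNT4c and PFF, 0.043 to 0.37 between SCNT8c and SCNT4c, -0.088 to 0.22 for SCNT4c-KG, 0.17 to 0.28 for SCNT4c-TDG and -0.028 to 0.36 between the treatments. With the replicate number as a block, SCNT4c-TDG against SCNT4c-KG gave 9 genes, as did the fit of these groups without it. Deviations of same-numbered libraries correlated at 0.003 to 0.033, so the numbers do not pair them. Over all features, 3070 were called between the treatments (1340 higher, 1730 lower), 4989 in the fit of 2 groups, 4805 with the block, 1794 to 2521 with 1 library left out, and 2050 higher against 1140 lower at the same total. In the other comparisons, which all use SCNT4c, replicates were not matched. No paired analysis was possible because titles and descriptions disagree on the SCNT4c numbers. SCNT4c-KG had the fewest reads, and genes under a mean of 10 were out of reach of the test.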

Other observations

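At the locus of SMARCA2, 2 assembled transcripts were higher in SCNT4c than in PFF while the gene itself was lower; both loci were chosen after their values were seen. The first transcript had no reads in PFF and was at 225.6, 125.8 and 204 scaled reads in SCNT4c, 13.1, 2.54 and 7.12 in SCNT4c-KG, 63.6, 58.3 and 82.6 in SCNT4c-TDG and 0, 0 and 37.0 in SCNT8c. The second was at 3.58 to 12.2 in PFF and 112 to 167 in SCNT4c. The merged locus also holds 2 other known genes. At the locus of INO80D, an assembled transcript was at 82.0, 24.5 and 51.5 in SCNT4c, against 253, 211 and 168 in SCNT4c-KG (limma log2 fold change 2.12, adjusted p = 0.0168).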
